A study of Mus musculus with 6 samples.

Results

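The genes described here make fatty acids and cholesterol, and they were followed in mouse acute myeloid leukemia cells with and without an intact Ppara gene. The list held 40 genes, chosen by symbol: 6 that control the pathways, 15 of fatty acid synthesis and 19 of sterol synthesis and handling. A gene counted as measured when a probe set was paired with that gene alone, and the row with the highest mean over the 6 arrays stood for it. By this rule 36 of the 40 were measured, among 30743 named genes: 5 regulators, 14 fatty acid genes and 17 sterol genes. The probe sets of Srebf1, the transcription factor of fatty acid synthesis, and Scd2, a desaturase, are each also paired with a microRNA gene. They were not used, and signals of Acat2 and Soat1 were not analysed here.

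Total RNA had been hybridised to Affymetrix arrays, 3 for Ppara +/+ leukemia and 3 for Ppara -/- leukemia, each group numbered as replicates 1 to 3. All 6 samples carry the fusion oncogene MLL-AF9, delivered with green fluorescent protein (GFP) by an MSCV retrovirus, so both groups are leukemias and neither is normal marrow. The Ppara -/- cells lack PPARA, a nuclear receptor that senses fatty acids. After a second round of transplantation, GFP-positive marrow cells were isolated by sorting. The mouse lines were bought and backcrossed. Animal age, recipient genotype and the number of independent primary leukemias were not found in the labels, so p-values measure only the spread between these samples. The comparison asks how the 2 genotypes differ in the 2 branches of lipid synthesis.

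Cells build both fatty acids and sterols from cytosolic acetyl-CoA. Acetyl-CoA carboxylase and fatty acid synthase make palmitate, which elongases and desaturases lengthen and desaturate, whereas HMG-CoA synthase opens the mevalonate route that runs through isoprenoids and squalene to cholesterol. The SREBP transcription factors, encoded by Srebf1 and Srebf2, switch on both branches. When sterols are scarce their escort SCAP carries them out of the endoplasmic reticulum, and when sterols are plentiful the INSIG proteins hold SCAP there. In liver PPARA is best known for fatty acid oxidation rather than for synthesis.

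The deposited values are log2 signals, and a level is compared only with the same gene on other arrays. On 4 arrays the median of 5222 negative controls lay between 4.63 and 4.81, but it was 5.16 on Ppara +/+ replicate 1 and 4.99 on Ppara -/- replicate 2. These 2 arrays also had the lowest medians over all named genes, 5.16 and 5.25 against 5.35 to 5.40. The Ppara probe set read 5.08 ± 0.18 in Ppara +/+ arrays and 5.19 ± 0.12 in Ppara -/- arrays (SD, n = 3; limma adjusted p = 0.997). Which part of Ppara its probes match is not known here, so this does not check the genotype. The sorted cells carried markers of the labelled cell type: 6 of 8 lay above the 95th percentile of the negative controls on all 6 arrays. Kit lay above it on 3 arrays and Hoxa10 on none. None of the 8 passed over all genes, but 3 were higher in Ppara -/- samples at an unadjusted p under 0.05 and without overlap. These were Kit by 0.54, Csf3r by 0.37 and Hoxa10 by 0.35 (limma adjusted p = 0.547, 0.473 and 0.554). Over all genes 5.74% stood at an unadjusted p under 0.05 in either direction, and 5.11% separated upward. Of the monocyte and macrophage markers, 9 of 11 had a negative difference and 2, Clec4a1 and Vcam1, passed over all genes (limma adjusted p = 0.0101 and 0.0374). At an unadjusted p under 0.05 stood 7 of the 11, all lower, where 2.60% of all genes were lower. Beside those 2 they were Cd68, Ctss, Fn1, Adgre1 and Csf1r, each without overlap (limma adjusted p = 0.138 to 0.364). Their differences were -0.73, -1.39, -2.02, -0.66 and -0.94 in that order. Ccr2 and Ms4a7 went the other way, by 0.37 and 0.11. The marker lists were chosen with earlier results of these data known, and the monocyte and macrophage list includes Clec4a1 and Vcam1. Its mean signal is thus no separate test. It ran from 6.45 to 6.86 in Ppara -/- and from 7.39 to 7.61 in Ppara +/+ samples. Of 4 erythroid markers Car2 alone fell, with a difference of -2.91 (limma adjusted p = 0.00546), while Alas2, Klf1 and Epor differed by -0.08, 0.01 and 0.01. T, B and NK cell markers lay below the 95th percentile of the negative controls on every array, 13 genes in all, as did all 8 stroma and adipocyte markers. Of the latter Pdgfrb was at 5.71 in Ppara -/- against 6.74 in Ppara +/+ samples, without overlap (limma adjusted p = 0.0719), and the list's median difference was 0.03.

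Between the genotypes 0 of the 36 genes passed the test (limma, Benjamini-Hochberg adjusted p under 0.05 over all 30743 genes), where 36 of all genes, 0.117%, did. At an unadjusted p under 0.05 stood 2 of the 36 genes, both lower in Ppara -/- cells, against 5.74% of all genes in either direction and 2.60% lower. The 3 values of one genotype all lay above the 3 of the other in 3 of the 36 genes, a share close to the 8.74% among all genes. These 3 were the elongases Elovl6 and Elovl7, both lower, where 3.62% of all genes separated downward, and the SREBP escort Scap, higher, where 5.11% separated upward. Of the differences 20 were negative, 14 positive and 2 exactly 0, with a median of -0.02 on the log2 scale against 0.02 over all genes. A negative difference was found in 41.8% of all genes. Among genes with a mean above that of the negative-control medians the share was 47.9%. The 95% interval of the difference lay within 1 log2 unit either way in all 36 genes and within 0.5 in 28.

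**Figure D1:**
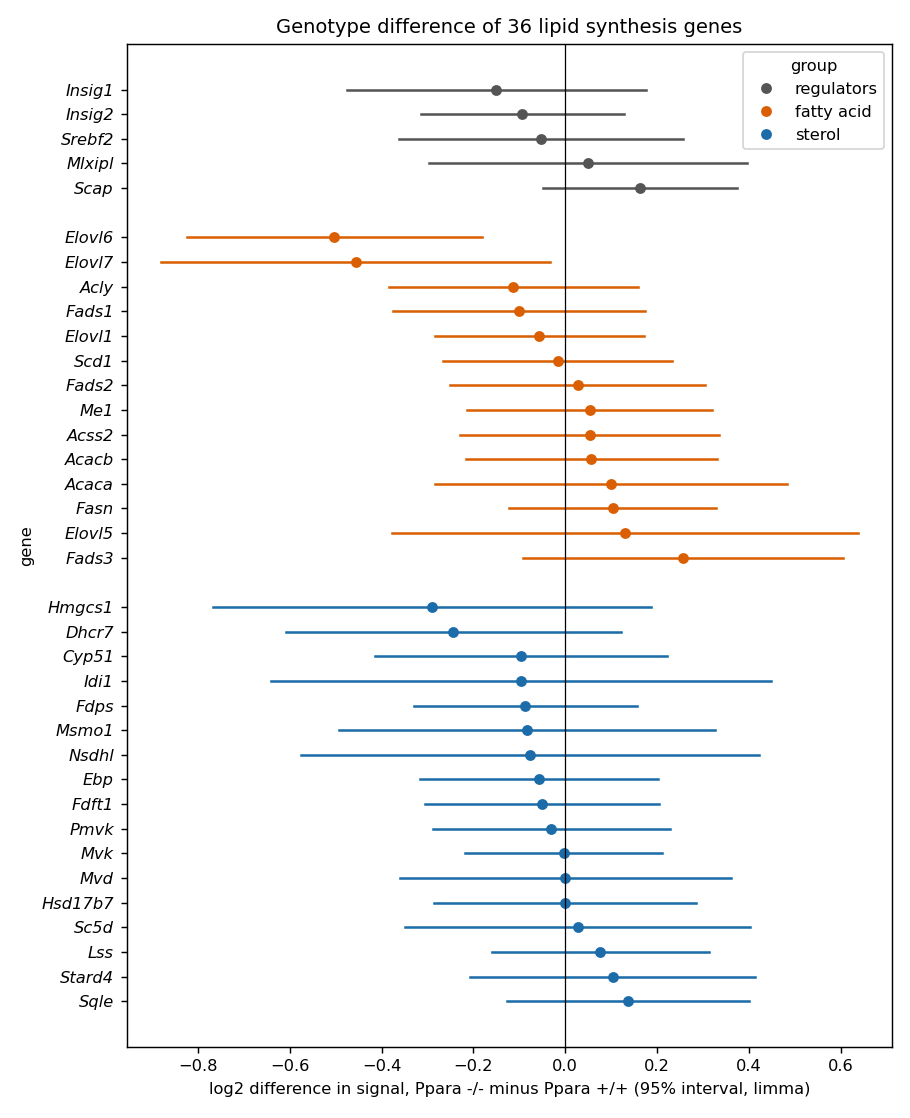
Log2 difference in signal between Ppara -/- and Ppara +/+ leukemia (x axis, log2 units) for 36 genes (y axis), with points for the estimate and lines for the 95% interval from limma. The intervals of Elovl6 and Elovl7 lie below 0 and those of the other 34 genes cross it.

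Elovl6 and Elovl7, which add carbons to long-chain acyl-CoAs, had the most negative differences of the 36 genes. Elovl6, which lengthens palmitate to stearate, had log2 signals of 6.72, 6.28 and 6.38 in Ppara +/+ replicates 1, 2 and 3 and of 6.12, 5.91 and 5.84 in Ppara -/- replicates 1, 2 and 3. All Ppara -/- arrays lay below all Ppara +/+ arrays. The difference was -0.50 (SE 0.14, 95% interval -0.82 to -0.18), a signal 1.42-fold higher in Ppara +/+ cells, and it did not pass over all genes (limma adjusted p = 0.442, unadjusted p = 0.0065; two-sided exact permutation p = 0.1, the lowest possible with 3 against 3). With 1 array left out the difference ran from -0.59 to -0.37, with limma unadjusted p of 0.00427 to 0.0267 and adjusted p of 0.326 or more. When the 2 arrays with raised negative controls were left out it was -0.35 (limma unadjusted p = 0.0334).

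Elovl7, an elongase of saturated and polyunsaturated acyl-CoAs, had 6.18, 5.88 and 6.28 in Ppara +/+ and 5.86, 5.25 and 5.86 in Ppara -/- replicates 1, 2 and 3. The groups did not overlap, but the gap between Ppara +/+ replicate 2 and Ppara -/- replicates 1 and 3 was 5.88 against 5.86. The difference of -0.46 (SE 0.19, 95% interval -0.88 to -0.03) did not pass (limma adjusted p = 0.821, unadjusted p = 0.0372), and it rested in part on Ppara -/- replicate 2, without which it was -0.25 (limma unadjusted p = 0.122). Without Ppara +/+ replicate 1 or 3 the unadjusted p of Elovl7 was 0.0865 and 0.117. When the 2 arrays with raised negative controls were left out the difference was -0.22 (limma unadjusted p = 0.194). Both elongases had signals below the 95th percentile and above the median of the negative controls on every array. The monocyte list mean was lower and Kit, Csf3r and Hoxa10 were higher in the same Ppara -/- samples, as described above, and the part of these cell type markers in the elongase values was not tested.

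The other elongases had no such separation. Elovl5, an elongase of polyunsaturated fatty acids, had 9.19, 8.80 and 9.19 in Ppara +/+ and 9.15, 9.67 and 8.75 in Ppara -/- replicates 1, 2 and 3. Its highest and lowest values were both Ppara -/- arrays, and the difference of 0.13 had an interval of -0.38 to 0.64. Elovl1, which makes very long saturated and monounsaturated acyl chains, ranged over only 0.21 across the 6 arrays, with a difference of -0.06 (95% interval -0.28 to 0.17).

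The enzymes that make and activate the carbon units of fatty acid synthesis overlapped between genotypes. Acly, ATP citrate lyase, which cleaves citrate to acetyl-CoA, had 8.92, 8.62 and 8.78 in Ppara +/+ and 8.62, 8.80 and 8.56 in Ppara -/- cells. Acaca, the cytosolic acetyl-CoA carboxylase that commits carbon to fatty acids, had 7.40, 6.89 and 7.08 against 7.15, 7.50 and 7.02. In each genotype Acly and Acaca were highest on the same array, Ppara +/+ replicate 1 and Ppara -/- replicate 2. Fasn, fatty acid synthase, had 8.27, 8.34 and 8.42 in Ppara +/+ and 8.48, 8.49 and 8.37 in Ppara -/- cells, a difference of 0.10 (95% interval -0.12 to 0.33; limma adjusted p = 0.997). Its range over the 6 arrays, 0.22, was narrower than those of Acly (0.36) and Acaca (0.61).

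Acss2, which activates cytosolic acetate, had 4.95, 5.21 and 5.33 in Ppara +/+ and 5.29, 5.12 and 5.24 in Ppara -/- cells. Me1, the malic enzyme that supplies NADPH, had 3.92, 4.22 and 4.23 against 4.18, 4.11 and 4.24. Both genotypes overlapped in each gene. On all 6 arrays Me1 was dimmer than the median negative control. Acacb, the carboxylase isoform whose product inhibits fatty acid oxidation at mitochondria, had a difference of 0.06 (95% interval -0.22 to 0.33).

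Of the desaturases, Scd1 had 4.98, 5.09 and 5.25 in Ppara +/+ and 5.07, 5.17 and 5.03 in Ppara -/- cells, close to the negative-control medians. Scd1 makes oleate from stearate, and its difference of -0.02 had an interval of -0.27 to 0.23. Fads1 and Fads2, the desaturases of polyunsaturated fatty acids, differed by -0.10 and 0.03. Fads3, their relative, had the most positive difference of the 36 genes, 0.26 (95% interval -0.09 to 0.60; limma adjusted p = 0.997), from 5.24, 5.70 and 5.50 to 5.82, 5.50 and 5.89, with 1 pair of arrays tied at 5.50. Over the 14 fatty acid genes 8 differences were positive and 6 negative, with a median of 0.04. That median was negative without Ppara +/+ replicate 1 (-0.04), Ppara +/+ replicate 2 (-0.01) or Ppara -/- replicate 2 (-0.05), and so changed sign with single arrays.

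**Figure D2:**
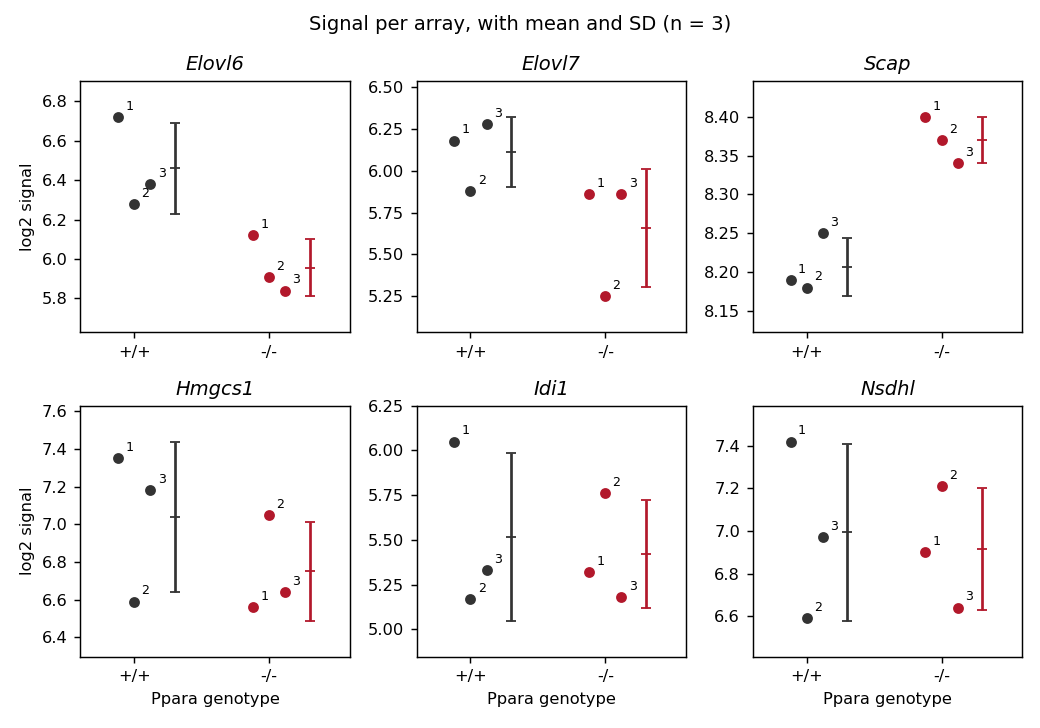
Log2 signal (y axis) of 6 genes on each array, by Ppara genotype (x axis), with the replicate number beside each point and the mean ± SD (n = 3) to its right. The genotypes separate in Elovl6, Elovl7 and Scap, whereas Hmgcs1, Idi1 and Nsdhl are highest on Ppara +/+ replicate 1 and Ppara -/- replicate 2.

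Sterol genes differed little between genotypes and more between arrays of a genotype. Of the 17 genes 11 had a negative difference, 4 a positive one and 2, Mvd and Hsd17b7, exactly 0, with a median of -0.05. None of the 17 separated the genotypes, and in each of them the range within a genotype, averaged over both, was wider than the difference between genotypes. This was also so in 91.5% of all genes. Their median within-genotype SD was 0.18, against 0.14 for the fatty acid genes, 0.15 for all genes and 0.19 for genes with a mean above that of the negative-control medians.

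Hmgcs1, HMG-CoA synthase, which opens the mevalonate route, had 7.35, 6.59 and 7.18 in Ppara +/+ and 6.56, 7.05 and 6.64 in Ppara -/- replicates 1, 2 and 3. Arrays of both genotypes were high and low, and the difference of -0.29 (SE 0.21, 95% interval -0.77 to 0.19) did not pass (limma adjusted p = 0.997). With 1 array left out it ran from -0.52 to -0.14. Idi1, which isomerises the isoprenoid building block, had 6.05, 5.17 and 5.33 against 5.32, 5.76 and 5.18. Nsdhl, a dehydrogenase that removes methyl groups from the sterol ring, had 7.42, 6.59 and 6.97 against 6.90, 7.21 and 6.64. In all 3 genes Ppara +/+ replicate 1 and Ppara -/- replicate 2 were the highest arrays of their genotype.

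Downstream enzymes shared this order. Dhcr7, which performs the last reduction to cholesterol, had 7.15, 6.64 and 6.88 in Ppara +/+ and 6.67, 6.85 and 6.42 in Ppara -/- cells, a difference of -0.24 (95% interval -0.61 to 0.12). Cyp51, the lanosterol demethylase, had 6.54, 6.07 and 6.45 against 6.15, 6.34 and 6.28. Sqle, squalene epoxidase, a rate-controlling step after squalene, had 5.74, 5.43 and 5.63 against 5.66, 5.84 and 5.71, and its difference of 0.14 was the most positive of the branch (95% interval -0.13 to 0.40). Lss, which closes the sterol rings, had 6.04, 5.84 and 5.97 against 6.03, 6.10 and 5.95. In each of these 4 genes the genotypes overlapped.

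Fdft1, squalene synthase, the first step that belongs to sterols alone, had 7.16, 7.11 and 7.19 in Ppara +/+ and 7.09, 7.27 and 6.95 in Ppara -/- cells, and Fdps, which makes its substrate, differed by -0.09 (95% interval -0.33 to 0.16). The early kinases Mvk and Pmvk were nearly flat, with ranges of 0.11 and 0.27 over the 6 arrays. Mvd, the decarboxylase that follows them, ran the other way from most of the branch: 6.63, 7.12 and 7.21 in Ppara +/+ and 7.09, 6.89 and 6.98 in Ppara -/- cells, lowest on Ppara +/+ replicate 1 and Ppara -/- replicate 2. Msmo1, a sterol methyl oxidase, exceeded the negative-control median on 1 of 6 arrays.

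The order of arrays was counted for each branch. In 11 of the 17 sterol genes (64.7%) Ppara +/+ replicate 1 and Ppara -/- replicate 2 were both the highest of their genotype: Hmgcs1, Idi1, Sqle, Lss, Cyp51, Msmo1, Nsdhl, Ebp, Sc5d, Dhcr7 and Stard4. Over all genes this was so in 15.8%, over genes with a mean above that of the negative-control medians in 25.0%, and in 4 of the 14 fatty acid genes (28.6%), Acly, Acaca, Fads1 and Elovl1. This order was not particular to these sterol genes. Of a list of proliferation genes Rrm2, Aurkb, Mcm3, Plk1, Pcna, Mki67, Top2a, Cdk1 and Bub1 also had it. Mcm2 and Mcm5 were tied on Ppara +/+ replicates 1 and 3. Sterol enzymes outside the 17 had it in Nus1, Lbr, Ggps1 and Dhdds but not in Cyb5r3. Among all genes the opposite was more frequent: 37.9% were lowest on Ppara +/+ replicate 1 and Ppara -/- replicate 2. So were 2 sterol genes, Mvk and Mvd, and 4 fatty acid genes, Acacb, Fads3, Me1 and Acss2. Conversely, Ppara +/+ replicate 2 and Ppara -/- replicate 3 were both lowest in 10 of the 17 sterol genes (58.8%), in 6 of 14 fatty acid genes and in 9.79% of all genes. These shares are descriptions of 6 arrays, and no test was made of them.

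In branch means the same arrays stood out. After each gene was centred on its own mean over the 6 arrays, the sterol mean was 0.15, -0.14 and 0.06 on Ppara +/+ replicates 1, 2 and 3 and -0.06, 0.14 and -0.14 on Ppara -/- replicates 1, 2 and 3. The fatty acid mean was 0.02, -0.04 and 0.07 and then 0.04, -0.01 and -0.07 on the same arrays, and the mean of all genes was -0.05, 0.01 and 0.01 and then 0.03, -0.03 and 0.02. The sterol mean thus varied within each genotype by an SD of 0.15 and 0.14, and the genotype means lay 0.02 above and 0.02 below the common mean. Fatty acid minus sterol mean was -0.13, 0.10 and 0.01 in Ppara +/+ and 0.10, -0.15 and 0.07 in Ppara -/- cells, with both signs in each genotype.

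The 2 arrays with the highest sterol means were those with the highest negative-control medians, and whether what raised the control signal also raised the sterol signals was not tested. Compared with the mean of the other 2 arrays of its genotype, the median sterol gene was 0.21 higher on Ppara +/+ replicate 1 and 0.25 higher on Ppara -/- replicate 2, whereas the median of all genes was 0.10 and 0.08 lower and that of genes with a mean above the negative-control medians 0.02 and 0.05 lower. Without these 2 arrays the median range between the remaining arrays of a genotype went from 0.31 to 0.16 in Ppara +/+ and from 0.32 to 0.08 in Ppara -/- cells for sterol genes, and from 0.31 to 0.11 and 0.23 to 0.10 for all genes. A range over fewer arrays is narrower by construction. The sterol median difference between genotypes was -0.045 in that fit and 0.00 with the negative-control median as a covariate. With single arrays left out it ran from -0.13 without Ppara -/- replicate 2 to 0.02 without Ppara -/- replicate 3.

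**Figure D3:**
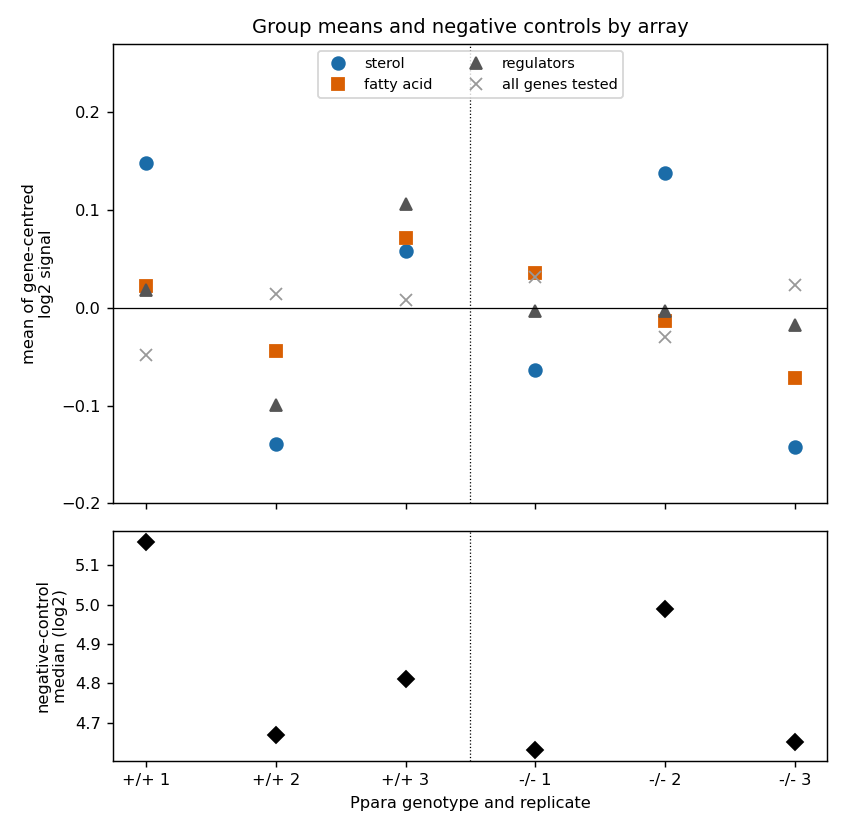
Upper panel: mean of gene-centred log2 signal (y axis) for the 17 sterol genes, 14 fatty acid genes, 5 regulators and all genes on each array (x axis, Ppara genotype and replicate). Lower panel: median log2 signal of the negative controls, and both the sterol mean and the control median are highest on Ppara +/+ replicate 1 and Ppara -/- replicate 2.

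The bases upstream of the sterol genes were read to see what these genes share beyond their function. The windows are the 250 bases before each start in RefSeq (GRCm38.p6), and 33 of the 40 genes had an entry. Among these 33 were Srebf1, Acat2 and Soat1, whose signals were not used. Of the sterol genes Fdps, Fdft1, Sqle and Stard4 had no entry, so the promoter shares and the signal results cover different sets of genes. Shown are the 4 sterol genes with the widest range within a genotype and the 2 elongases, 5′ to 3′ on the strand of the gene, each with 1 listed start. Capitals mark every match, on either strand, to the sterol element TCACNCCAC, the E-box CACGTG, the CCAAT box (CCAAT, or ATTGG on the other strand) and the GC box (GGGCGG, or CCGCCC on the other strand).
Idi1, chr13:8885356-8885605, plus strand: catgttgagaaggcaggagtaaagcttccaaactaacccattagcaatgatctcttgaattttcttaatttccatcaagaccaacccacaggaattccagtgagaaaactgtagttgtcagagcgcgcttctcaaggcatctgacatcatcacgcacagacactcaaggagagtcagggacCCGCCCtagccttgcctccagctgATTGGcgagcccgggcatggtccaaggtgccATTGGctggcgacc
Nsdhl, chrX:72918271-72918520, plus strand: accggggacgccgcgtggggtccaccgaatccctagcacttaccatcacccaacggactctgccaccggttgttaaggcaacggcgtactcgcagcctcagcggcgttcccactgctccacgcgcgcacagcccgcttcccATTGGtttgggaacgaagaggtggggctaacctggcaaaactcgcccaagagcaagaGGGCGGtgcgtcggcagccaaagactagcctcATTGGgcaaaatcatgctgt
Hmgcs1, chr13:119690101-119690350, plus strand: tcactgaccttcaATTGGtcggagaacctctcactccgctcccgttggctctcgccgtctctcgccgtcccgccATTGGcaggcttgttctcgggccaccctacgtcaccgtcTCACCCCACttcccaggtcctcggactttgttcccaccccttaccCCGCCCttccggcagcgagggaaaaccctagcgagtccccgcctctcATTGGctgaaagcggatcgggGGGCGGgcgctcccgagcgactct
Msmo1, chr8:64733579-64733828, minus strand: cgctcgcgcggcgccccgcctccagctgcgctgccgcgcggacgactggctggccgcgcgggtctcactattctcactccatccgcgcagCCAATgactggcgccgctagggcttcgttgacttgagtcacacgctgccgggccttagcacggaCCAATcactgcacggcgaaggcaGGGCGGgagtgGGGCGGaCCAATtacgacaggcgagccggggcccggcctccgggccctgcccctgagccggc
Elovl6, chr3:129532136-129532385, plus strand: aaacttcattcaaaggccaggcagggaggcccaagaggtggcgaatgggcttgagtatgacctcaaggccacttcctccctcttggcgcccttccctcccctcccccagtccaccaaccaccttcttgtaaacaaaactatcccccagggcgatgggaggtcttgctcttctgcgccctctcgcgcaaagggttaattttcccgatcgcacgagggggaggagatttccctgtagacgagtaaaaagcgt
Elovl7, chr13:108214154-108214403, plus strand: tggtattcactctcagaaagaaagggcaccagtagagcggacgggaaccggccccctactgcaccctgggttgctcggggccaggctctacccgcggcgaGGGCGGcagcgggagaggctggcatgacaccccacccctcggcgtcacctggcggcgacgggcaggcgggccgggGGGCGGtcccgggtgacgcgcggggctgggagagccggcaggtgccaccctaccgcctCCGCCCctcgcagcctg

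Each of the 4 sterol windows held a CCAAT box, 2 in Idi1, 2 in Nsdhl, 3 in Hmgcs1 and 3 in Msmo1, and each held a GC box. The CCAAT box is bound by NF-Y and the GC box by SP1, factors that are known to act beside SREBP at sterol genes. Elovl6 had no match to any of the 4 motifs in this window and Elovl7 had 3 GC boxes and no CCAAT box. Counting a gene once over all its listed starts, 14 of 15 sterol genes (93.3%), 7 of 12 fatty acid genes (58.3%) and 5 of 6 regulators had a CCAAT box, against 37.5% of 27025 genes in the promoter table and 39.2% of those with a mean signal above that of the negative-control medians. The GC box was found in 13 of 15 sterol genes, in 7 of 12 fatty acid genes against 35.4% of all genes and 58.9% of those above the negative-control medians. The sterol element was found in Hmgcs1 and Mlxipl alone among the 33 genes, and in 1.22% of all genes and 1.38% of those above the negative-control medians. The E-box was found in 3 of 15 sterol genes, 1 of 12 fatty acid genes and 3 of 6 regulators, against 6.86% of all genes and 9.29% of those above the negative-control medians. A match describes these letters only, and genes with several listed starts had more windows in which to match.

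The regulators overlapped between genotypes except for Scap. Scap had 8.19, 8.18 and 8.25 in Ppara +/+ and 8.40, 8.37 and 8.34 in Ppara -/- cells. All Ppara -/- values were higher, with SDs of 0.04 and 0.03, and the difference of 0.16 (SE 0.09, 95% interval -0.05 to 0.37) did not pass (limma adjusted p = 0.997, unadjusted p = 0.113; two-sided exact permutation p = 0.1). With any array left out it lay between 0.148 and 0.185. With arrays centred on their median it was 0.143, and the genotypes then overlapped in Scap. Srebf2, the SREBP of the sterol branch, had 8.31, 8.04 and 8.51 against 8.21, 8.34 and 8.15, with a difference of -0.05 (95% interval -0.36 to 0.26).

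Insig1, which retains SCAP and is itself a target of SREBP, had 8.15, 7.62 and 7.86 in Ppara +/+ and 7.63, 7.77 and 7.78 in Ppara -/- cells. It was the highest of its genotype on Ppara +/+ replicate 1, as were 11 of the 17 sterol genes, but in Ppara -/- cells replicate 2 did not stand above replicate 3. Insig2, its relative, had 5.37, 5.22 and 5.27 against 5.24, 5.19 and 5.15, with a difference of -0.09 (95% interval -0.31 to 0.13). Mlxipl, which encodes the glucose-responsive factor ChREBP, had 5.52, 5.89 and 6.09 against 5.95, 5.76 and 5.94. It was lowest of its genotype on the 2 arrays on which sterol genes were high, as were 37.9% of all genes.

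**Figure D4:**
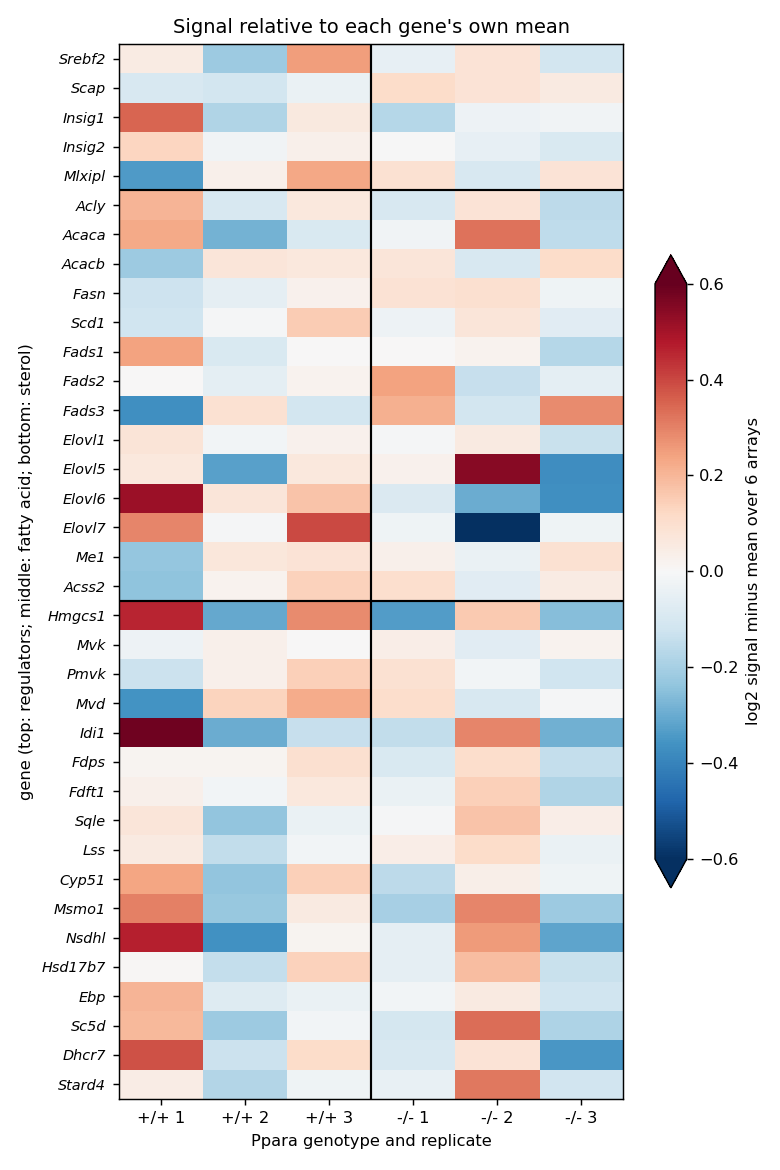
Log2 signal of each of the 36 genes (y axis) on each array (x axis, Ppara genotype and replicate) as the difference from that gene's mean over 6 arrays, red above and blue below, with colours saturating at 0.6. Most sterol genes in the bottom block are red on Ppara +/+ replicate 1 and Ppara -/- replicate 2 and blue on Ppara +/+ replicate 2 and Ppara -/- replicate 3.

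Other genes of the pathways, outside the 40, were read in the same fit, and 0 of 55 passed over all genes by limma. At an unadjusted p under 0.05 stood 5 of the 55, all lower, where 2.60% of all genes were lower and 5.74% in either direction. The genotypes did not overlap in 7 of the 55, against 8.74% of all genes. Of these 7, 6 were lower and 1 higher, where 3.62% of all genes separated downward and 5.11% upward. Of 5 measured sterol enzymes 4 had a negative difference, with a median of -0.20. Cyb5r3, a reductase that feeds electrons to sterol and fatty acid desaturation, was at 7.59 ± 0.03 in Ppara -/- against 8.29 ± 0.20 in Ppara +/+ cells (SD, n = 3; limma adjusted p = 0.115). Among 14 genes of sterol control and traffic 9 were negative and 5 positive, with a median of -0.04. Scarb1, the receptor for high-density lipoprotein, was at 7.67 ± 0.06 against 8.28 ± 0.16 and Npc2, which carries cholesterol out of lysosomes, at 7.15 ± 0.13 against 7.46 ± 0.12 (n = 3; limma adjusted p = 0.150 and 0.747). In these 3 genes the genotypes did not overlap, nor did they in Erlin1, which acts in the turnover of sterol sensors, with a difference of -0.30 (limma adjusted p = 0.997).

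Among 24 further genes of fatty acid synthesis and its supply of carbon and NADPH 17 lay lower in Ppara -/- cells and 6 higher, and their median difference was -0.045. Acss1, the mitochondrial acetyl-CoA synthetase, was at 6.42 ± 0.03 in Ppara -/- against 7.12 ± 0.38 in Ppara +/+ cells, and Hacd4, a dehydratase of chain elongation, at 6.35 ± 0.24 against 6.82 ± 0.32 (SD, n = 3; limma adjusted p = 0.327 and 0.793). Acss1 separated the genotypes and Hacd4 did not, while Hacd1, a related dehydratase, did with a difference of -0.14 (limma adjusted p = 0.997). Aacs, which activates acetoacetate for lipid synthesis, was at 7.70 ± 0.02 against 7.51 ± 0.05 (limma adjusted p = 0.935), with all Ppara -/- values above all Ppara +/+ values. Of 12 genes of glycerolipid assembly 8 were negative and 3 positive, with a median of -0.03, and the genotypes overlapped in Dgat1 and Dgat2, which complete triglycerides. Of 11 proliferation genes 10 had a negative difference, where 41.8% of all genes did, with a median of -0.17 and 0 at an unadjusted p under 0.05.

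The signals set a limit to these comparisons. Of the 36 genes 6 lay above the 95th percentile of the negative controls on every array, Srebf2, Acly, Fasn, Elovl1, Elovl5 and Fdps, and 29 on no array. Above the negative-control median on all 6 arrays lay 32. The number of arrays also limits precision: the median half-width of the unadjusted 95% interval over the 36 genes was 0.28 log2 units, and a difference as large as that of Elovl6 did not pass over all genes.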

How the data were processed

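RNA was measured on arrays in 3 Ppara +/+ and 3 Ppara -/- samples, grouped by their titles. The deposited values are log2 signals, for which the submitters' processing notes name RMA and limma without versions; the array annotation's build is not given in the sources used here. RMA's quantile step would remove a shift of most genes in 1 direction. Of 72688 rows, 6732 were controls, and a platform annotation table gave 31216 a single gene and 1534 more than 1, while 33206 are unnamed here. Gene symbols were updated through RefSeq gene IDs (GRCm38.p6). Each of 30743 genes was tested by its highest-mean row with limma 3.58.1 in R 4.3.3 (lmFit, eBayes, two-sided, no covariates), adjusted by Benjamini-Hochberg over all genes, threshold 0.05. No filter on dim genes was set. The SE and 95% interval are the moderated ones. The fit was tested on simulated data. Summaries used Python 3.11.15.

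The members and lists were chosen with earlier results of these data known. Members with a value for every array were those at an unadjusted p under 0.05, those without overlap, the regulators and the listed entry or committed steps. Of each further list up to 4 genes by smallest p were named, by group means or differences. In the monocyte and macrophage list the markers at an unadjusted p under 0.05 and those with a positive difference were named, after their values were seen. Fads3, Elovl1, Elovl5, Nsdhl and Mvd were added after their values were seen. The alternatives were another prior, 2 normalizations, the mean of all probe sets, 2 filters on dim genes, array weights, a block for replicate number, leaving out each array, the 2 arrays with the highest negative-control median left out, and that median as a covariate.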

Additional observations from a re-analysis of the deposited data

How the results depend on the processing

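No member passed the adjusted threshold in any of the 16 alternative fits (limma), and Elovl6, Elovl7 and Scap kept their direction in each fit that held them. Elovl6 stayed at an unadjusted p under 0.05 in all 15 fits that tested it, and it was not tested among genes above the negative-control 95th percentile. The number of genes called over the whole table, 36, was 69 with a trended and robust prior, 13 with arrays centred on their median, 22 with quantile normalization repeated, 1 among genes above the negative-control 95th percentile, 277 with array weights and 6 to 36 with 1 array left out. It was 0 when both arrays with raised negative controls were left out, where 2947 genes had an unadjusted p under 0.05. The replicate block gave 12 genes, 0 members called and 2 at an unadjusted p under 0.05. Correlations across genes between same-numbered arrays of the genotypes were -0.33, -0.47 and 0.11. That of Ppara +/+ replicate 1 with Ppara -/- replicate 2 was 0.50. Values centred on 3 arrays per genotype give correlations that depend on each other. They therefore cannot decide whether the numbers pair the samples, and the labels do not say. Members without overlap, 3 with all arrays, were 1 of 36 with arrays centred on their median, against 9.65% of all genes in that fit. That 1 was Elovl6, and the genotypes overlapped in Scap and Elovl7. They were 1 of 7 tested (11.7% of all genes) among genes above the negative-control 95th percentile. Such a count rises with fewer arrays. It was 4 to 8 with 1 array left out, where 12.6% to 24.9% of all genes did not overlap, and 9 of 36, against 39.5% of all genes, without both arrays with raised negative controls. The fatty acid minus sterol difference of medians, 0.09, ran from -0.0392 to 0.0983 with 1 array left out, negative without Ppara +/+ replicate 1 or Ppara -/- replicate 3, and was -0.0195 with the negative-control median as a covariate. The causes of these changes were not tested. Under array weights 7 members had the other sign of difference, and with the negative-control median as a covariate 9 did.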
